A study of Homo sapiens with 10 samples.

Results

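The 29 genes described here make cholesterol and fatty acids or control their making, and were taken by symbol from the 27946 gene symbols of a transcript table, with the transcript of the highest mean FPKM kept for each symbol. All 29 were found, and all 29 passed the filter on low values that left 13334 genes for testing. They comprised 17 enzymes of sterol synthesis, 5 genes of sterol sensing and transport (*SREBF1*, *SREBF2*, *SCAP*, *INSIG1* and *STARD4*) and 7 genes of fatty acid and glycerolipid synthesis. RNA-Seq of rRNA-depleted total RNA was carried out on EA.hy926, an established human hybrid line made from an umbilical vein endothelial cell and a lung carcinoma line. Promoters of 1 of 2 lncRNAs, *VEGFA-LNC* or *VEGFC-LNC*, had been deleted with CRISPR/Cas9, and 3 homozygous deletion clones per lncRNA were sequenced, each a clonal line of its own. Each deletion had its own set of 2 control libraries, from cells given the gRNAs without Cas9 and carried through the same clonal selection. Cells of all groups were grown in the same serum-containing medium, and no drug or sterol treatment is labelled for any of them.

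Cells build cholesterol from acetyl-CoA through the mevalonate pathway, by way of squalene and lanosterol, and build fatty acids from the same precursor. The transcription factors encoded by *SREBF1* and *SREBF2* are held in the endoplasmic reticulum together with SCAP and INSIG proteins while membrane sterol is plentiful, and are released to the Golgi and then to the nucleus when sterol is scarce. Most of the genes below are known targets of these factors, which bind sterol response elements next to sites for NF-Y and Sp1.

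The depth recovered from the FPKM steps ranged from 6744001 to 24197970 reads per library, and the least covered member value rested on 46 reads (*PMVK*). The targeted lncRNAs were not analysed here, so that the deletions were not checked in these values. Of 12 endothelial markers, summed FPKM lay between 510 and 1430 over all libraries, and *CLDN5* was at 0 in each of them. The lung epithelial list summed to between 440 and 1310, carried by the keratins *KRT7*, *KRT8* and *KRT18*, while *EPCAM* and *CDH1* stayed at or under 0.505, and fibroblast and leukocyte lists reached at most 0.71 and 0.27. The controls of a set were far closer to each other than clones were: the mean squared deviation of their reads over that of counting noise was 3.75 for the VEGFA-LNC controls and 1.54 for the VEGFC-LNC controls, against 18.3 to 138 between clones of 1 deletion. Nothing in the labels says that the controls of a set came from separate cultures, so that p-values measure the spread between these libraries, which may in part be technical. In bulk RNA, fewer cells expressing a gene and less RNA per cell cannot be told apart.

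To show the letters near the start sites of these genes, the 250 bases before the start site are given for *INSIG1* and *SREBF2*, which hold a sterol response element core, for *HMGCS1* and *FDPS*, which differed between the control sets, and for *SCAP*, which did not move with the others. They are RefSeq sequence of build GRCh38.p14, 5′ to 3′ on the strand of the gene. Capitals mark the element core CACNCCAC and the NF-Y letters CCAAT, on either strand. *INSIG1* lies on the plus strand at chr7:155297628-155297877, *SREBF2* on the plus strand at chr22:41832855-41833104, *HMGCS1* on the minus strand at chr5:43313413-43313662, *FDPS* on the plus strand at chr1:155308616-155308865 and *SCAP* on the minus strand at chr3:47475942-47476191.
INSIG1: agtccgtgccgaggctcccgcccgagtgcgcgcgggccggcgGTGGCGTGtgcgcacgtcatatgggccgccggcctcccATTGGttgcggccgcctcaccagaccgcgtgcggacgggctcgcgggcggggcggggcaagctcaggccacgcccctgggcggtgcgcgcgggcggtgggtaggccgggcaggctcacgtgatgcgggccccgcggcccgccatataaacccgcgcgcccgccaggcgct
SREBF2: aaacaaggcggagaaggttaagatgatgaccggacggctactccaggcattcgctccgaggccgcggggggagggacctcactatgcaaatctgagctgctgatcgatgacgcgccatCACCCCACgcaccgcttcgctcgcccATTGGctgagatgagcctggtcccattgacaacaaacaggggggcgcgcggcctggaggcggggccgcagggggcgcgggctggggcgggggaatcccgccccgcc
HMGCS1: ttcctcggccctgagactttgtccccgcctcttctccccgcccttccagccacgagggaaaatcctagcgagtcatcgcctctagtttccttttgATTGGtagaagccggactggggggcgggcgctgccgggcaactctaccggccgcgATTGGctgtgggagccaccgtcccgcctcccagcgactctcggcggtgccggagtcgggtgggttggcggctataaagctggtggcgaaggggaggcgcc
FDPS: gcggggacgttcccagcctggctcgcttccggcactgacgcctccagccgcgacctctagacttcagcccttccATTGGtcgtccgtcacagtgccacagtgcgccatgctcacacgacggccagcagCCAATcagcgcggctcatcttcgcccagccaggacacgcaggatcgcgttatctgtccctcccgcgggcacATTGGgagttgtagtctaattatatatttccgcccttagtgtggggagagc
SCAP: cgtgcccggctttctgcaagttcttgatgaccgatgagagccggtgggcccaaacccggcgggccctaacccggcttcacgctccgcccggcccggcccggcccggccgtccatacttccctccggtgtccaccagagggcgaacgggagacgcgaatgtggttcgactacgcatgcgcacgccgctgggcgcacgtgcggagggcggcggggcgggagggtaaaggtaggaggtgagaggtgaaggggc

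The promoter sequences, 250 bases before to 50 after the start site, were matched for 25 of the 29 members, those without an entry being *ACAT2*, *FDFT1*, *SQLE* and *FASN*. CCAAT stood in 15 of 25 member promoters (60%), compared with 35.7% of 27305 promoters of the same length. Among the sterol enzymes it stood in 10 of 14. The Sp1 letters GGGCGG stood in 22 of 25 (88%), compared with 44.6% of all promoters. CACNCCAC stood in 3 of 25 (*SC5D*, *SREBF2* and *INSIG1*; 12%), compared with 5.74%, and all 3 also held CCAAT. The E-box CACGTG stood in 4 of 25 (*LSS*, *SC5D*, *SCAP* and *INSIG1*; 16%), compared with 7.43%. The 4 motifs were searched on both strands as exact letters, none of them contains another, and a match describes the letters only.

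The members were highest in the VEGFC-LNC controls and in clone 1 of that deletion. The median deviation of the 29 members from their own mean over the 10 libraries, on the log2(FPKM + 0.1) scale, was 0.50 and 0.55 in the VEGFC-LNC controls and 0.37 in clone 1 of the VEGFC-LNC deletion. It was 0.19 in clone 1 of the VEGFA-LNC deletion and 0.05 in clone 3 of the VEGFC-LNC deletion. The other libraries lay below 0, the VEGFA-LNC controls at -0.22 and -0.23, VEGFA-LNC clones 2 and 3 at -0.33 and -0.29, and VEGFC-LNC clone 2 at -0.32. Over all tested genes the same median stayed between -0.18 and 0.10. A VEGFC-LNC control held the highest value of 13 of the 29 members, and clone 1 of the VEGFC-LNC deletion that of 8 more.

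**Figure D1:**
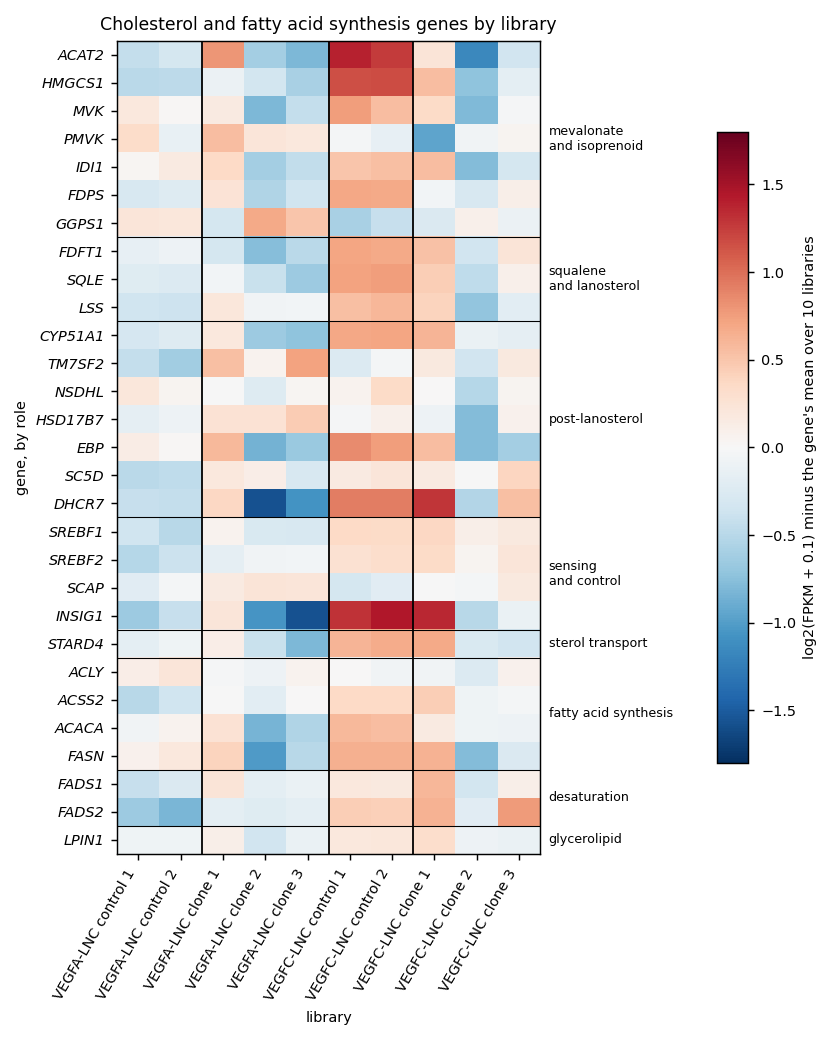
Heat map of the 29 members (rows, by role) in the 10 libraries (columns), coloured by log2(FPKM + 0.1) minus the gene's mean over the libraries. The VEGFC-LNC controls are red for most sterol genes, with *INSIG1* at 35.8 and 39.5 FPKM, and *GGPS1* runs the other way.

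The control sets were compared first, because each deletion is read against its own set. In all, 6 members were higher in the VEGFC-LNC controls than in the VEGFA-LNC controls, passing an FDR of 0.05 with an FC of 1.5 or more: *HMGCS1*, *FDPS*, *SREBF1*, *SREBF2*, *FADS2* and *ACSS2*. These 6 of 29 (20.7%) stand beside 2.92% of all tested genes that were called higher, and 0 members were called lower, compared with 9.76%. The median log2 FC was 0.73 over the members and -0.11 over all tested genes. For 24 of 29 members (82.8%) both VEGFC-LNC controls lay above both VEGFA-LNC controls, compared with 33.7% of tested genes. For 3 (*GGPS1*, *SCAP* and *ACLY*) both lay below, compared with 49.2%. The members were chosen with earlier results of these data known, so that these shares and those below are descriptions and no test.

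*HMGCS1* encodes the cytosolic synthase that makes HMG-CoA, at the entry of the mevalonate pathway. Its FPKM was 4.14 and 4.18 in the VEGFA-LNC controls and 13.2 and 13.3 in the VEGFC-LNC controls, with 5.40, 4.64 and 3.86 in VEGFA-LNC clones 1 to 3 and 8.65, 3.49 and 5.16 in VEGFC-LNC clones 1 to 3. The VEGFC-LNC controls stood above every other library, and clones of both deletions overlapped each other. The difference between control sets was 3.13-fold (log2 FC 1.65, SE 0.35, limma FDR 0.0215). *FDPS*, which makes farnesyl diphosphate, the branch point of sterols and isoprenoids, was at 30.8 and 32.0 FPKM in the VEGFA-LNC controls and at 60.8 and 60.2 in the VEGFC-LNC controls. Clones lay at 44.3, 25.7 and 29.1 for VEGFA-LNC and at 36.2, 30.6 and 40.4 for VEGFC-LNC, all below the VEGFC-LNC controls. The control sets differed by 1.93-fold (log2 FC 0.95, SE 0.24, limma FDR 0.037).

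The genes of both SREBP factors differed less and varied little among clones. *SREBF2*, whose product mainly drives sterol genes, was at 13.3 and 14.5 FPKM in the VEGFA-LNC controls, 17.0, 18.3 and 18.4 in the VEGFA-LNC clones, 23.1 and 23.9 in the VEGFC-LNC controls and 24.2, 19.9 and 22.2 in the VEGFC-LNC clones. Every library of the VEGFC-LNC set was above every library of the VEGFA-LNC set. The log2 FC between control sets was 0.75 (SE 0.13, limma FDR 0.0125). *SREBF1*, whose product mainly drives fatty acid genes, was at 8.07 and 7.31 FPKM in the VEGFA-LNC controls and 13.3 and 13.1 in the VEGFC-LNC controls. Its clones lay at 10.8, 8.51 and 8.45 for VEGFA-LNC and 13.4, 11.1 and 11.7 for VEGFC-LNC, again with no overlap between the sets. The log2 FC between control sets was 0.77 (SE 0.17, limma FDR 0.0225).

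*FADS2*, the delta-6 desaturase of polyunsaturated fatty acids, was at 12.4 and 11.0 FPKM in the VEGFA-LNC controls and 26.6 and 26.2 in the VEGFC-LNC controls. VEGFA-LNC clones were tightly grouped at 17.2, 16.6 and 17.2, while VEGFC-LNC clones were spread over 30.2, 16.8 and 33.0. The control sets differed by 2.25-fold (log2 FC 1.17, SE 0.28, limma FDR 0.0289). *ACSS2*, which turns acetate into acetyl-CoA, was at 9.01 and 9.91 FPKM in the VEGFA-LNC controls and 16.3 and 16.4 in the VEGFC-LNC controls. Its clones lay at 12.6, 11.2 and 12.8 for VEGFA-LNC, above their controls, and at 17.4, 12.001 and 12.4 for VEGFC-LNC, on either side of theirs. The log2 FC between control sets was 0.78 (SE 0.19, limma FDR 0.0311). The starts of *FADS1* and *FADS2* overlap by 855 bases on opposite strands, and whether the table was counted by strand is not stated.

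**Figure D2:**
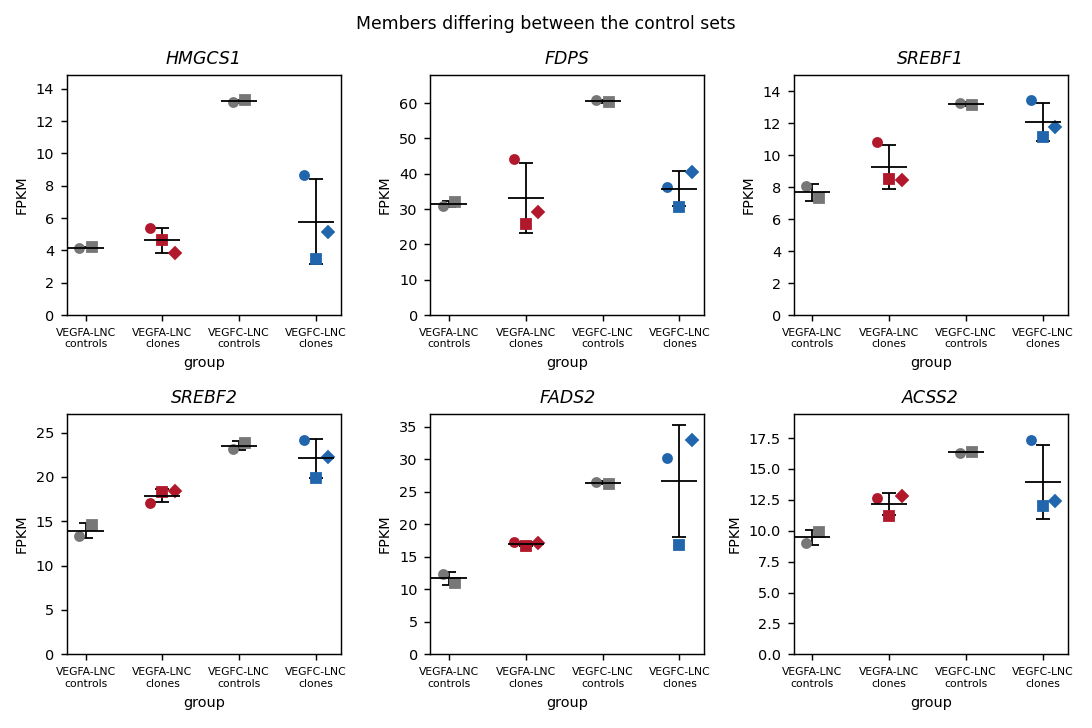
FPKM (y axes, from 0) of the 6 members that differed between the control sets, in the 4 groups (x axes); points are libraries, with circle, square and diamond for numbers 1, 2 and 3, and the bar and whiskers give the mean and SD (n = 2 controls or 3 clones). In every panel both VEGFC-LNC controls lie above both VEGFA-LNC controls, as for *FDPS* at 60.8 and 60.2 against 30.8 and 32.0.

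Several members differed as much or more between the control sets without passing the FDR threshold. *INSIG1*, the sterol sensor that holds SCAP in the endoplasmic reticulum, was at 9.19 and 10.8 FPKM in the VEGFA-LNC controls and at 35.8 and 39.5 in the VEGFC-LNC controls, 3.74-fold apart (log2 FC 1.90, SE 0.65, limma FDR 0.088). *ACAT2*, the cytosolic thiolase ahead of *HMGCS1*, was at 6.57 and 7.10 and at 23.3 and 21.4 (log2 FC 1.69, SE 0.55, limma FDR 0.0744). *DHCR7*, which catalyses a last step to cholesterol, was at 11.7 and 11.6 and at 29.7 and 29.7 (log2 FC 1.34, SE 0.66, limma FDR 0.20). For all 3 the control sets did not overlap, but clones of 1 deletion differed widely, and this spread enters the shared error of the fit. *SQLE*, the epoxidase that commits squalene to sterols, was at 20.4 and 20.1 and at 39.4 and 40.2 (log2 FC 0.97, SE 0.28, limma FDR 0.0525).

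These calls rested on the control pairs. With the control pairs averaged, or with any 1 of the 4 control libraries left out, 1 value was left in a set. Calls then became few or none among all tested genes, and those of the members were lost with them. The log2 FC of *HMGCS1* was 1.64 or 1.65 in these fits. Without VEGFA-LNC clone 1, 14 members were called beside 23.0% of all tested genes either way, and without VEGFA-LNC clone 3, 5 members beside 10.8%. Without VEGFC-LNC clone 1, 10 members were called beside 13.4%, and without VEGFC-LNC clone 2, 9 members beside 11.6%. With no library left out the share either way was 12.7%. A list of 12 proliferation genes moved with the same libraries: its summed FPKM was 541 and 538 in the VEGFC-LNC controls and 220 and 215 in the VEGFA-LNC controls, its 12 genes all had positive log2 FCs, and 0 of them were called. Its part in the differences of the members was not tested.

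By pathway stage, the calls between the control sets stand beside 2.92% of all tested genes called higher. At that share, 0 calls in a stage of 3 or 7 genes says little. Of the 17 sterol enzymes 2 were called, *HMGCS1* and *FDPS*, both of the mevalonate and isoprenoid stage. In that stage of 7 enzymes, *PMVK* (-0.19) and *GGPS1* (-0.71, limma FDR 0.138) had negative log2 FCs. None of the 3 enzymes from farnesyl diphosphate to lanosterol was called, with log2 FCs of 0.82 for *FDFT1* (squalene synthase; limma FDR 0.0688), 0.97 for *SQLE* and 0.94 for *LSS* (lanosterol synthase; limma FDR 0.0713). Of the 7 enzymes after lanosterol 0 were called, with log2 FCs from 0.08 for *NSDHL* (limma FDR 0.832) to 1.34 for *DHCR7*, and 0.96 for the demethylase *CYP51A1* (limma FDR 0.0924). *GGPS1* makes geranylgeranyl diphosphate, which leaves the sterol route for protein prenylation.

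Of the 7 fatty acid and glycerolipid genes 2 were called, *FADS2* and *ACSS2*, beside 2.92% of all tested genes called higher. The median log2 FC of the 7 genes was 0.52, beside 0.73 for the 17 sterol enzymes, a difference that was not tested. *FASN*, the synthase itself, was at 32.1 and 34.7 FPKM in the VEGFA-LNC controls and 47.8 and 47.5 in the VEGFC-LNC controls (log2 FC 0.51, SE 0.49, limma FDR 0.511). *ACACA*, the carboxylase that makes malonyl-CoA, had a log2 FC of 0.57, and *LPIN1*, a phosphatidate phosphatase, one of 0.28. *ACLY*, which makes cytosolic acetyl-CoA from citrate, had the highest mean level of the members over the 10 libraries, at 76.6 and 82.0 FPKM in the VEGFA-LNC controls and 71.2 and 67.6 in the VEGFC-LNC controls (log2 FC -0.19). Its level varied by 1.37-fold over the 10 libraries, the least of the 29 members, whereas that of *INSIG1* varied by 8.19-fold.

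Upon *VEGFA-LNC* deletion, 0 of 29 members were called, compared with 2.75% of all tested genes. By limma 4 members had an unadjusted p under 0.05, compared with 19.8% of tested genes. With limma-voom on the recovered reads 0 members were called as well, compared with 4.06% of tested genes. The median log2 FC by limma was 0.03, and the median of all tested genes was -0.06. Values were positive in 15 members (51.7%) and negative in 14 (48.3%), compared with 44.2% and 55.8% of tested genes. The median of the 12 proliferation genes was -0.80, with 11 negative values, and their part was not tested. In 10 of 29 members (34.5%) all 3 clones lay above both controls, compared with 15.3% of tested genes: *LSS*, *TM7SF2*, *HSD17B7*, *SC5D*, *SREBF1*, *SREBF2*, *SCAP*, *ACSS2*, *FADS1* and *FADS2*. In 3 (*FDFT1*, *NSDHL* and *ACLY*; 10.3%) all clones lay below, compared with 23.7%.

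The largest of these differences was in *TM7SF2*, a sterol delta-14 reductase. It was at 2.96 and 2.57 FPKM in the controls and at 5.91, 4.20 and 6.70 in VEGFA-LNC clones 1 to 3, a 1.96-fold difference (log2 FC 0.97, SE 0.24, limma FDR 0.0708). The groups did not overlap, at low levels, and the transcript kept for this gene is the noncoding RefSeq variant NR_102367, which shares 7 bases with the neighbouring *VPS51*. With scaling by the median of ratios it passed the FDR threshold. *FADS2* followed at log2 FC 0.54 (limma FDR 0.276), which turned to -0.04 against all 4 controls. Next came *SC5D*, the lathosterol desaturase, at 0.48 (limma FDR 0.208) and *HSD17B7*, a 3-ketosteroid reductase, at 0.45 (limma FDR 0.331).

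*FASN* and *MVK* had the largest negative values, but their clones overlapped the controls. *FASN* was at 32.1 and 34.7 FPKM in the VEGFA-LNC controls and at 40.3, 15.0 and 21.6 in clones 1 to 3 (log2 FC -0.50, SE 0.45, limma FDR 0.594). Clone 1 lay above the controls and clones 2 and 3 below them. *MVK*, mevalonate kinase, was at 4.73 and 4.18 FPKM in the controls and at 4.65, 2.32 and 3.05 in the clones (log2 FC -0.46, SE 0.36, limma FDR 0.526). Without clone 1, 1 of 29 members was called beside 13.0% of all tested genes. It was *ACACA*, which was at 7.02 and 7.63 FPKM in the controls and at 8.74, 4.04 and 4.99 in clones 1 to 3. Here too clone 1 was above the controls and the others below.

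The sensing genes did not move together upon this deletion. *SCAP*, the escort of the SREBP factors, was at 11.7 and 13.2 FPKM in the VEGFA-LNC controls and at 15.1, 15.8 and 15.8 in the clones (log2 FC 0.33, SE 0.12, limma FDR 0.19). *SREBF2* had a log2 FC of 0.36 (SE 0.12, limma FDR 0.157) and *SREBF1* one of 0.26 (SE 0.15, limma FDR 0.396), each with every clone above both controls. *INSIG1* was at 16.8, 6.91 and 4.83 in clones 1 to 3, on either side of its controls at 9.19 and 10.8 (log2 FC -0.27, SE 0.60, limma FDR 0.84).

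Upon *VEGFC-LNC* deletion, 0 of 29 members were called, compared with 0.472% of tested genes. By limma 9 members had an unadjusted p under 0.05, compared with 18.8% of tested genes. With limma-voom 0 members were called, compared with 0.375% of tested genes. The median log2 FC by limma was -0.48, compared with -0.09 over all tested genes. Negative values were found in 26 of 29 members (89.7%), compared with 59.0% of tested genes. The 12 proliferation genes had a median of -1.76 and negative values throughout, and their part in the members' values was not tested. In 12 of 29 (41.4%) all 3 clones lay below both controls, compared with 30.6% of tested genes: *ACAT2*, *HMGCS1*, *MVK*, *FDPS*, *FDFT1*, *SQLE*, *LSS*, *CYP51A1*, *NSDHL*, *EBP*, *ACACA* and *FASN*. In 2 (*GGPS1* and *SCAP*; 6.9%) all clones lay above, compared with 17.2%. Against all 4 controls the median was -0.17 for this deletion and -0.23 for *VEGFA-LNC*, so that both values changed with the controls used.

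*ACAT2* had the largest value of this deletion. Its FPKM was 23.3 and 21.4 in the VEGFC-LNC controls and 10.4, 3.90 and 6.93 in clones 1 to 3, a 3.36-fold difference (log2 FC -1.75, SE 0.50, limma FDR 0.144). All clones were below their controls, and clones 2 and 3 lay near the VEGFA-LNC controls at 6.57 and 7.10 FPKM or below them. *HMGCS1*, with the values given above, had a log2 FC of -1.28 (SE 0.32, limma FDR 0.112) and was called when VEGFC-LNC clone 1 was left out, beside 0.607% of all tested genes. Without VEGFA-LNC clone 1, which enters only the shared spread, *ACAT2*, *FDPS* and *HMGCS1* were called, 3 of 29 members beside 8.68% of all tested genes. *EBP* was at 21.2 and 19.8 FPKM in the controls and at 17.3, 6.77 and 7.61 in the clones (log2 FC -1.09, SE 0.48, limma FDR 0.265).

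*INSIG1* was at 35.8 and 39.5 FPKM in the VEGFC-LNC controls and at 37.4, 10.2 and 13.4 in clones 1 to 3 (log2 FC -1.12, SE 0.60, limma FDR 0.333). Clone 1 was thus at the level of the controls and clones 2 and 3 near that of the VEGFA-LNC controls. *FASN* showed the same order of clones, at 47.8 and 47.5 in the controls and 47.0, 17.6 and 25.4 in the clones (log2 FC -0.79, SE 0.45, limma FDR 0.36), as did *MVK*, at 7.02 and 6.13 in the controls and 5.26, 2.34 and 4.04 in the clones (log2 FC -0.82, SE 0.36, limma FDR 0.262). *SREBF1* and *SREBF2* had log2 FCs of -0.13 (SE 0.15) and -0.09 (SE 0.12), and their clones overlapped the controls. *SCAP* was at 10.8 and 11.7 FPKM in the controls and 13.5, 13.1 and 15.3 in the clones (log2 FC 0.30, SE 0.12, limma FDR 0.242).

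*GGPS1* had the largest positive value of this deletion, with no overlap between groups. It was at 6.62 and 7.46 FPKM in the VEGFC-LNC controls and at 8.31, 10.6 and 9.21 in clones 1 to 3 (log2 FC 0.40, SE 0.27, limma FDR 0.42). In the VEGFA-LNC set it was at 11.6 and 11.5 in the controls and at 8.01, 16.002 and 14.1 in the clones. In that set it was lowest in the clone in which most sterol enzymes were highest.

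When the *VEGFC-LNC* effect was subtracted from the *VEGFA-LNC* effect in the same fit, 0 members were called, compared with 1.45% of tested genes (194 genes, and 86 with the clone number as a replicate block). By limma 7 members had an unadjusted p under 0.05, compared with 18.6% of tested genes. With limma-voom 0 members were called, compared with 1.72% of tested genes. The median difference by limma was 0.45 on the log2 scale. The *VEGFA-LNC* effect was the higher in 27 of 29 members (93.1%), compared with 53.1% of tested genes. This difference contains the gap between the control sets by construction. It was largest for *ACAT2* (1.91, SE 0.71, limma FDR 0.202), *HMGCS1* (1.42, SE 0.45, limma FDR 0.152) and *LSS* (1.14, SE 0.39, limma FDR 0.173), followed by *INSIG1* (0.85), *TM7SF2* (0.83) and *FDPS* (0.80). *LSS* was at 7.28 and 7.20 FPKM in the VEGFA-LNC controls and 10.9, 9.00 and 9.04 in the clones, all above, and at 13.8 and 14.2 in the VEGFC-LNC controls and 12.5, 5.70 and 8.19 in the clones, all below. *HMGCS1* was called without VEGFC-LNC clone 1, beside 1.22% of all tested genes.

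**Figure D3:**
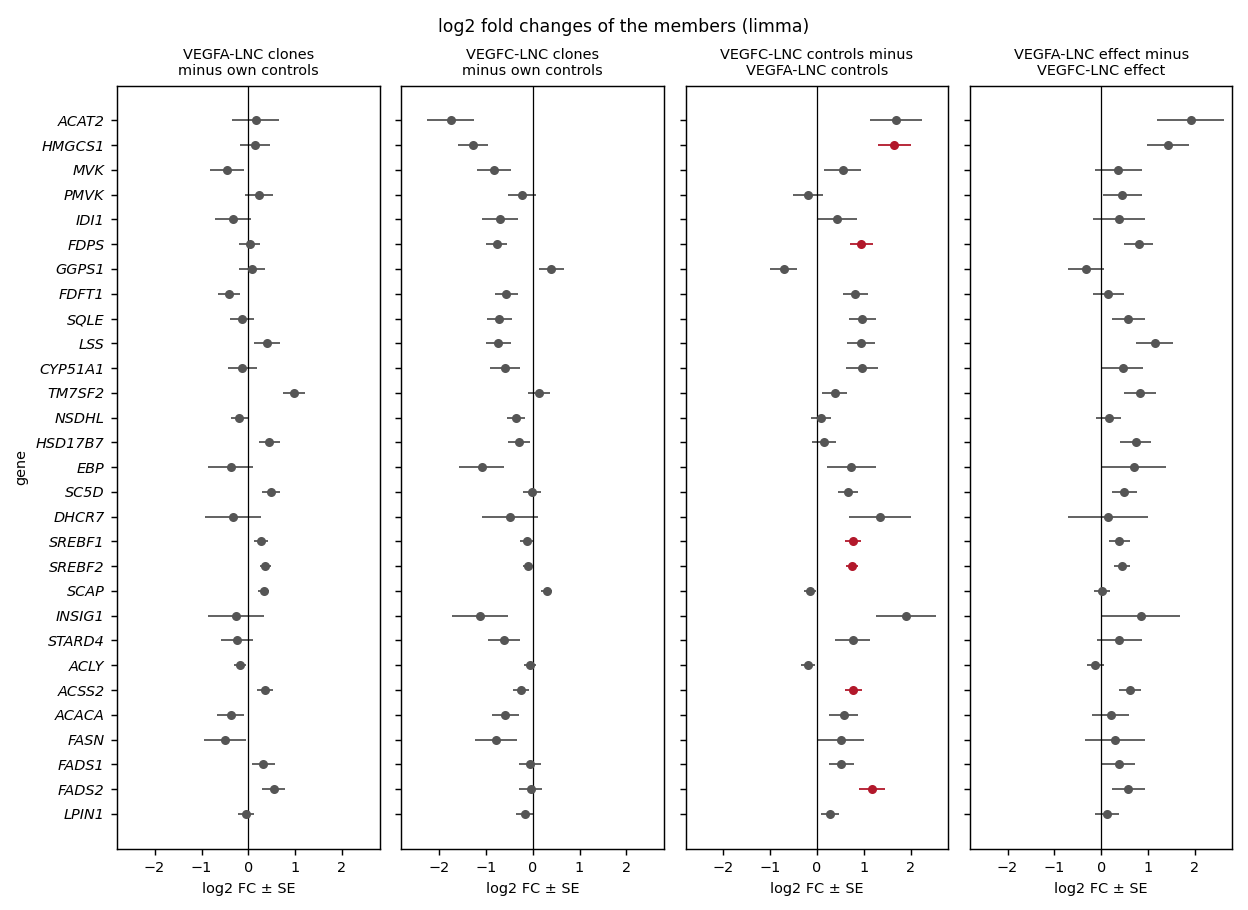
The log2 FC of each member (points) with its SE (bars) in the 4 comparisons (panels, x axis in log2 units); red points passed an FDR of 0.05 and an FC of 1.5. Red points occur only between the control sets, where *HMGCS1* is at 1.65, and the 2 deletion panels hold none.

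Clones of 1 deletion differed widely from each other in many members. Clone 1 had the highest value of its deletion in 21 of 29 members (72.4%) for *VEGFA-LNC*, compared with 44.9% of tested genes, and in 19 (65.5%) for *VEGFC-LNC*, compared with 41.1%. It was the highest in both deletions in 17 members (58.6%), compared with 26.0% of tested genes. The median log2 difference of clone 1 from the mean of clones 2 and 3 was 0.35 and 0.51 over the members, and 0.04 and 0.06 over all tested genes. These are descriptions of single clones and carry no test.

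In both deletions clone 1 stood far above the others for *DHCR7*, *INSIG1*, *EBP*, *ACAT2* and *FASN*. *DHCR7* was at 20.3, 5.21 and 7.37 FPKM in VEGFA-LNC clones 1 to 3 and at 38.3, 10.9 and 23.0 in VEGFC-LNC clones 1 to 3, so that clone 1 was 3.23-fold and 2.26-fold above the mean of the others. For *INSIG1* these ratios were 2.86 and 3.18, for *EBP* 2.56 and 2.40, for *ACAT2* 2.87 and 1.92, and for *FASN* 2.20 and 2.18. *IDI1*, the isopentenyl diphosphate isomerase, was at 8.61, 4.31 and 4.88 and at 9.84, 3.86 and 5.31, on either side of its VEGFA-LNC controls at 6.82 and 7.44. *STARD4*, a carrier of cholesterol between membranes, was at 13.1, 9.10 and 6.86 and at 19.4, 9.95 and 9.53. The summed proliferation genes were at 519, 82.1 and 113 FPKM in VEGFA-LNC clones 1 to 3 and at 357, 95.8 and 188 in VEGFC-LNC clones 1 to 3, highest in clone 1 in each case. Their part in the order of the clones was not tested.

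The spread among the clones differed between members. The SD of log2(FPKM + 0.1) among VEGFC-LNC clones had a median of 0.45 over the members and 0.249 over all tested genes, and that among VEGFA-LNC clones one of 0.259 and 0.287. It was widest for *DHCR7* among VEGFA-LNC clones (1.01) and for *INSIG1* among VEGFC-LNC clones (0.986). It was narrow for *SREBF2* (0.0622 and 0.142) and *SCAP* (0.0354 and 0.118), and in the VEGFA-LNC clones narrowest for *FADS2* (0.0265). Between the controls of a set the members' median SD was 0.0781 for VEGFA-LNC and 0.0312 for VEGFC-LNC, compared with 0.065 and 0.0639 over all tested genes.

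**Figure D4:**
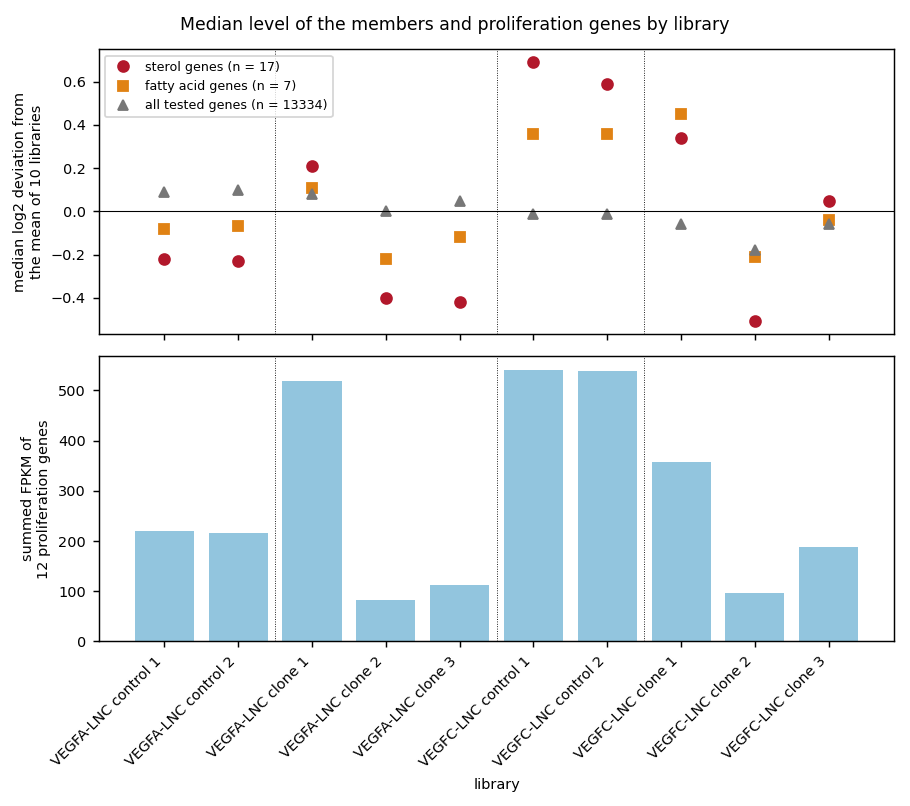
Top, median log2 deviation from the mean of the 10 libraries (y axis) for 17 sterol enzymes, 7 fatty acid genes and all tested genes in each library (x axis); bottom, summed FPKM of 12 proliferation genes. For the sterol enzymes, the fatty acid genes and the proliferation sum, clone 1 of each deletion lies above clones 2 and 3, with sums of 519 and 357 FPKM.

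The likeness of members over the 10 libraries is given as Pearson r without a test, since libraries share groups, clones and depth. Over the 406 pairs of members the median r was 0.534, and 25.6% of pairs were over 0.8, compared with a median of 0.066 and 3.04% over all pairs of tested genes. The values of r with *INSIG1* were 0.972 for the sterol carrier *STARD4* and, among sterol enzymes, 0.987 for *CYP51A1*, 0.96 for *SQLE*, 0.926 for *DHCR7*, 0.903 for *HMGCS1* and 0.90 for *FDFT1*. *FASN* was closest to *IDI1* (r = 0.982), a sterol enzyme, and not to another fatty acid gene.

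The members with an r over 0.8 with *SREBF2* were *FADS2* (r = 0.926), *ACSS2* (0.912), *SREBF1* (0.889) and *SC5D* (0.807), each with a lower r with *INSIG1*. *TM7SF2*, *HSD17B7*, *SCAP* and *GGPS1* also had a lower r with *INSIG1* than with *SREBF2*, but reached at most 0.285 with *SREBF2*. *SREBF1*, like *SREBF2* itself, separated every library of the VEGFC-LNC set from every library of the VEGFA-LNC set. *GGPS1* (r = -0.908 with *INSIG1*), *SCAP* (-0.599) and *PMVK* (-0.548) ran against *INSIG1*, and *ACLY* (-0.193), *TM7SF2* (-0.133) and *HSD17B7* (-0.132) lay near 0, while *NSDHL* was at 0.398 with *INSIG1* and near 0 with *SREBF2*. *PMVK* rested on 46 to 145 reads per library.

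Between the control sets, the listed transcripts of a member mostly gave similar values. Transcripts of 1 gene can share reads, so that this likeness is no independent check. Of the 8 listed transcripts of *HMGCS1*, the log2 difference between control sets ran from 1.63 to 1.65, and of the 8 of *INSIG1* from 1.90 to 1.95. It was widest for the 10 transcripts of *STARD4*, at 0.70 to 1.09, and upon *VEGFC-LNC* deletion these ran from -0.62 to -0.26. On hg19 the kept transcripts are NM_001098272 on chromosome 5 from 43287572 to 43313614 for *HMGCS1*, NM_198336 on chromosome 7 from 155089482 to 155101945 for *INSIG1* and NM_004599 on chromosome 22 from 42229083 to 42303312 for *SREBF2*. *ACAT2* overlaps the opposite strand of *TCP1* by 558 bases, a gene of mean 87.7 FPKM, so that reads of the shared end cannot be told apart if strand was not used. *HSD17B7* has a near-identical pseudogene copy, and its values are uncertain for that reason.

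Of 51 other genes of sterol and fatty acid handling, 50 were tested. Between the control sets 0 of them were called higher and 7 lower (14.0%) in the VEGFC-LNC controls, beside 2.92% and 9.76% of all tested genes, and their median log2 FC was -0.06. Among the 7 were *ME1*, *NPC1* and *SOAT1*. *NPC1*, which exports cholesterol from lysosomes, was at 40.4 and 42.7 FPKM in the VEGFA-LNC controls and 21.7 and 21.4 in the VEGFC-LNC controls (log2 FC -0.94, SE 0.18, limma FDR 0.0146), and *SOAT1*, which esterifies cholesterol for storage, was at 14.7 and 15.2 and at 8.44 and 8.22 (log2 FC -0.83, SE 0.17, limma FDR 0.0203). *ME1*, the cytosolic malic enzyme that supplies NADPH, was also lower upon *VEGFA-LNC* deletion, at 37.2 and 39.9 FPKM in the controls and 13.7, 15.1 and 13.5 in the clones (log2 FC -1.45, SE 0.15, limma FDR 0.00468). It was at 12.3 and 14.9 in the VEGFC-LNC controls and 16.7, 13.3 and 12.6 in the VEGFC-LNC clones, so that only the 2 VEGFA-LNC controls stood apart. No other gene of the list was called in either deletion comparison, and for the difference between the deletions *ME1* (-1.51) and *SP1* (0.87) were called.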

How the data were processed

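RNA-Seq libraries of 10 samples were grouped from their labels into 3 VEGFA-LNC deletion clones, 3 VEGFC-LNC deletion clones and 2 controls for each. The authors deposited FPKM values per RefSeq transcript on hg19, 1 column per library, with the exonic length. Per the labels and the paper's methods, reads were trimmed with Trim Galore (version 0.4.4) and aligned with STAR (version 2.5.4b), and reads were assigned to Gencode v19 genes by featureCounts. The table lists RefSeq transcripts instead, and how its values were counted, and whether by strand, is not given in the sources used here, although the library kit keeps strand. No raw count was used, and the edgeR test named by the authors, which needs counts, was not run. FPKM multiplied by length gave whole reads (within 0.1) for 100% of checked low values, hence the depth of 6744001 to 24197970 reads per library.

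Genes with FPKM times length in kilobases of at least 1 in at least 2 libraries were fitted as log2(FPKM + 0.1) in limma (version 3.58.1, R version 4.3.3). The fit had a mean-variance trend and 4 groups (6 residual degrees of freedom). It was also run on simulated reads with the same spread in every group. Controls and clones here differ in spread, so that the simulation cannot check the shared error. Fold changes on the log2(FPKM + 0.1) scale understate those of low genes. Calls had a Benjamini-Hochberg FDR under 0.05 over the 13334 genes and an FC of at least 1.5. An exact permutation test was not used, since 3 against 2 libraries cannot reach 0.05. Levels of members are FPKM per library. Named with values were every called member, the 6 with the largest log2 FC per comparison, and INSIG1, SCAP, SREBF1 and SREBF2; others are named where clones or controls did not overlap. The members and lists were chosen with earlier results of these data known. Alternatives were another pseudocount, no filter, median of ratios, the longest transcript, limma-voom, a replicate block, each library left out, averaged control pairs, 2 groups alone and all 4 controls.

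Same-numbered clones and controls did not deviate together (r from -0.0427 to 0.0473 over the tested genes), nor did same-numbered controls (r = -0.00557). Same-numbered clones of the 2 deletions did (r = 0.553, 0.409 and 0.219). So did VEGFA-LNC clone 2 with VEGFC-LNC clone 3 (r = 0.263) and VEGFA-LNC clone 3 with VEGFC-LNC clone 2 (r = 0.183). Deviations were taken from the mean of the 3 clones of a deletion, so that values for clones 2 and 3 depend on those for clone 1. The values thus set clone 1 apart from clones 2 and 3 in both deletions, and do not show that numbers 2 and 3 pair. The labels state no pairing, and the number served as a block in an alternative fit only. Promoter sequence is RefSeq, GRCh38.p14. Figures were drawn with matplotlib.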

Additional observations from a re-analysis of the deposited data

How the results depend on the processing

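Members called between the control sets numbered 6, and 10 with the median of ratios, 10 with limma-voom and 17 with 2 groups only. Over all tested genes the shares called were 12.7%, 11.2%, 11.2% and 33.0% in these. The fit of 2 groups only takes its error from the control pairs alone, whose spread may in part be technical. With 1 clone left out 5 to 14 members were called, beside 10.8% to 23.0% of all tested genes. With control pairs averaged or a control left out, 1 value was left in a set, and calls became few or none among all tested genes. The 6 remained called under the median of ratios, limma-voom and 2 groups only. Without VEGFA-LNC clone 3, 5 of them did, and *FDPS* had a limma FDR of 0.051. The cause was not tested, except that averaging and leaving out a control leave fewer libraries. Upon *VEGFA-LNC* deletion 1 member was called with the median of ratios (*TM7SF2*), beside 2.69% of all tested genes. With a clone left out it was 0 to 1, the 1 (*ACACA*) without VEGFA-LNC clone 1, beside 13.0%. Upon *VEGFC-LNC* deletion 0 to 3 were called with a clone left out, the 3 (*ACAT2*, *FDPS* and *HMGCS1*) without VEGFA-LNC clone 1, beside 8.68%. For the difference between deletions it was 0 to 1, the 1 (*HMGCS1*) without VEGFC-LNC clone 1, beside 1.22%. With all 4 controls the median log2 FC of the members moved to -0.23 for *VEGFA-LNC* and -0.17 for *VEGFC-LNC*, and *FADS2* upon *VEGFA-LNC* deletion turned to -0.04. With a library left out, the medians ran from -0.17 to 0.11 for *VEGFA-LNC*, -0.66 to -0.32 for *VEGFC-LNC*, 0.68 to 0.73 between the control sets and 0.25 to 0.67 for the difference.

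With the replicate block, members called stayed at 6 between the control sets, beside 12.2% of all tested genes called either way. In the other comparisons members called stayed at 0. The medians were 0.02 for *VEGFA-LNC*, -0.43 for *VEGFC-LNC*, 0.73 between the control sets and 0.45 for the difference. Over all tested genes the replicate block lowered the calls from 367 to 151 for *VEGFA-LNC*, from 63 to 20 for *VEGFC-LNC* and from 194 to 86 for the difference. Averaged control pairs left 0, 1 and 0 calls, and 0 of 1690 between the control sets. Depth was lowest for *PMVK*, *TM7SF2* and *MVK*, at 46, 47 and 56 reads in their least covered library.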
